A study of Mus musculus with 16 samples.

Results

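The 32 genes followed here belong to glycolysis and to the cellular response to low oxygen. They were chosen as a list of 2 genes of glucose and lactate transport, 14 glycolysis enzymes and regulators, 3 genes of oxygen sensing, 12 hypoxia-response genes and Mif, and all 32 were present among the 31053 features of the single-cell matrices. The matrices came from live CD45+ cells sorted from subcutaneous flank tumors of C57BL/6J mice aged 6 to 8 weeks, grown to about 5 mm and harvested 24 h after the treatment day. The 4 groups held 4 libraries each. They were untreated MC38 (MC38 NT), MC38 after a single dose of 12 Gy given with CT guidance (MC38 RT), untreated Panc02-SIY (Panc02-SIY NT), and Panc02-SIY after the same dose (Panc02-SIY RT). MC38 is a murine colorectal carcinoma line. Panc02-SIY is a murine pancreatic adenocarcinoma line that carries the model peptide antigen SIY. Each line stands for its tumor type as a transplant under the skin, and the sort was made for cells with CD45, the surface protein of leukocytes. The design text gives 4 animals per group and the methods give 3, and neither ties a library to an animal, so p-values measure the spread between libraries.

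The matrices listed 28678 cell barcodes, and libraries of the same tumor shared many of them. In MC38 the pairs of libraries shared a median of 964.5 barcodes, 83.3% of the smaller library, while Panc02-SIY pairs shared 82, or 5.54%, and libraries of different tumors shared a median of 0. Each barcode was therefore kept only in the library of its tumor that held most of its UMIs (unique molecular identifiers, 1 per captured transcript). This left 2632 of 9843 barcodes in MC38, at 147 to 609 per library, and 18136 of 18835 in Panc02-SIY, at 1113 to 4452 per library. The kept UMIs per library were 3422372 to 8500443 in MC38 NT, 1385711 to 8500889 in MC38 RT, 6500446 to 43708746 in Panc02-SIY NT and 5275195 to 26738456 in Panc02-SIY RT, and MC38 RT replicate 1 was the shallowest. In MC38, 769 barcodes stood in all 8 libraries, untreated and irradiated alike. A shared MC38 barcode had a median of 76.4% of its UMIs in its richest library. MC38 libraries kept 42.8% to 86.4% of their UMIs and Panc02-SIY libraries 99.0% to 99.8%. Whether the richest library was the origin of a barcode was not tested, which limits the comparisons of treatments in MC38. Tumor line and the pool in which libraries share barcodes cannot be told apart. In these sums, fewer cells that express a gene and fewer transcripts per cell cannot be told apart either.

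Glycolysis splits glucose into pyruvate, and lactate dehydrogenase then turns pyruvate into lactate, which leaves the cell through monocarboxylate transporters. When oxygen falls, prolyl hydroxylases of the Egln family stop marking HIF-1α for degradation, and the stabilized factor binds short DNA motifs with the core ACGTG and raises transcription of glucose transporters, glycolysis enzymes and genes such as Vegfa and Bnip3. Activated macrophages and T cells also use this program in well-oxygenated tissue, and neutrophils rely on glycolysis for most of their energy.

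The core motif was looked up in the promoters of these genes because it is the core of the motifs that HIF-1α binds. RefSeq promoter windows of 300 bases, from 250 before to 50 after a transcript start on GRCm38.p6 (mm10), were at hand for 29 of the 32 genes. ACGTG on either strand stood in 22 of these 29 genes (75.9%), against 5886 of 27025 genes in all (21.8%). Counted by window, 24 of 40 windows of the listed genes (60%) and 6447 of 32851 windows of all genes (19.6%) held it. CACGTG reads as ACGTG on both strands and counts as 2 overlapping matches. A match describes letters in the window and is not a measured binding site. The genes were listed for these pathways and the windows of all genes were not matched for base content, so the shares are no test. The stretches below stand for a transporter, a regulator and an enzyme of glycolysis, a sensor and a pair of targets described further on, chosen after their values were seen. They are read 5′ to 3′ on the strand of the gene, run up to 15 bases past the matches, end at the transcript start where that comes first, and show the matches in capitals.
Slc16a3, chr11:120949025-120949066, plus strand: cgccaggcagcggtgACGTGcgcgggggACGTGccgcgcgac
Pfkfb3, chr2:11502123-11502158, minus strand: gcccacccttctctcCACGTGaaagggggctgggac
Ldha, chr7:46845741-46845789, plus strand: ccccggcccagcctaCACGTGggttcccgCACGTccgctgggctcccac
Bnip3, chr7:138909594-138909629, minus strand: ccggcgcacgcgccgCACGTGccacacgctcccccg
Egln3, chr12:54204084-54204118, minus strand: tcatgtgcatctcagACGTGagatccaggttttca
Ankrd37, chr8:45999851-45999871, minus strand: tgtcagtgtttgggtACGTGa
The matches in Slc16a3 lay 27 and 14 bases before the start, and the shown one of 2 in Ankrd37 lay 6 bases before it. Ldha held 5 matches, of which the 3 nearest the start are shown. In Egln3 the single match lay 229 bases before the start. The promoter of Hif1a itself held 3 matches, between 135 and 70 bases before its start.

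Barcodes were clustered without the 32 genes and named from marker genes, which gave macrophages, monocytes, neutrophils, conventional dendritic cells (cDCs), T cells, cycling T cells, NK cells, B cells and smaller classes. Clusters of low depth, of a high mitochondrial share or without a clear set of markers stayed unnamed and held 26.7% of MC38 NT, 26.5% of MC38 RT, 31.0% of Panc02-SIY NT and 18.3% of Panc02-SIY RT barcodes. Among these, cluster 6 had macrophage markers at a low depth and held 2.49%, 0.46%, 14.1% and 6.69% of the barcodes of the same groups. Cluster 23, with a median of 15549 UMIs, had T cell markers beside leading genes such as C1qc and Acp5, and held 166 barcodes in Panc02-SIY NT and 76 in Panc02-SIY RT. Cluster 25 had few leukocyte transcripts. It was led by Mgp, Dcn and Fst, had 32.9 CPM of Ptprc, the gene of CD45, and held 167 barcodes and 10.0% of the UMIs of Panc02-SIY NT and 64 barcodes and 4.96% of those of Panc02-SIY RT, with 0 barcodes in MC38. MC38 barcodes were mostly macrophages, 762 in NT and 709 in RT, with 77 and 106 T cells. Panc02-SIY held 544 and 516 macrophages beside 3005 and 2827 T cells and 668 and 1078 neutrophils. The macrophage classes of the tumors were made of different clusters. Cluster 0, led by Arg1, Ccl12, Apoe and Trem2, held 72.2% of MC38 NT and 67.8% of MC38 RT macrophages, and cluster 26, led by Fcgr4, Wfdc17 and Acp5, held 93.6% of Panc02-SIY NT and 80.8% of Panc02-SIY RT macrophages. Cluster 4, which had a median of 3089 UMIs and 17.0% mitochondrial UMIs per barcode, was the macrophage cluster with at least 5 barcodes in most libraries of both tumors, at 27.8% and 32.2% of the class in MC38 and 4.6% and 17.1% in Panc02-SIY. Cluster 0 also held 10 and 11 barcodes of Panc02-SIY NT and RT.

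Before any comparison of tumors or treatments, the genes differed between cell classes of the same untreated Panc02-SIY tumors. Levels are given as counts per 1000000 UMIs of the class in a library (CPM, mean ± SD over libraries, n = 4 unless stated), and because the assay counts 1 end of each transcript they need no length correction. Of the 32 genes, 17 had their highest mean in neutrophils, 7 in cycling T cells, 4 in cDCs and 2 in T cells, among 9 classes, and 16 were lowest in B cells. For 6 genes every library of the top class exceeded every library of the other classes. In neutrophils these were Slc16a3, Egln3 and Ero1l, and in cycling T cells Ldha, Higd1a and Mif. These class differences are a description, with no test. The same counts over all genes were not made, so they do not show a trait particular to the listed genes. CPM is a share of the UMIs of a class, and the classes differed in depth. The median UMIs per barcode over all groups were 2352 in neutrophils, 10676 in monocytes and 15698 in cycling T cells. The B cell cluster was led by immunoglobulin genes such as Igkc, Ighg2b and Igha, whose part in its low levels was not tested.

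**Figure D1:**
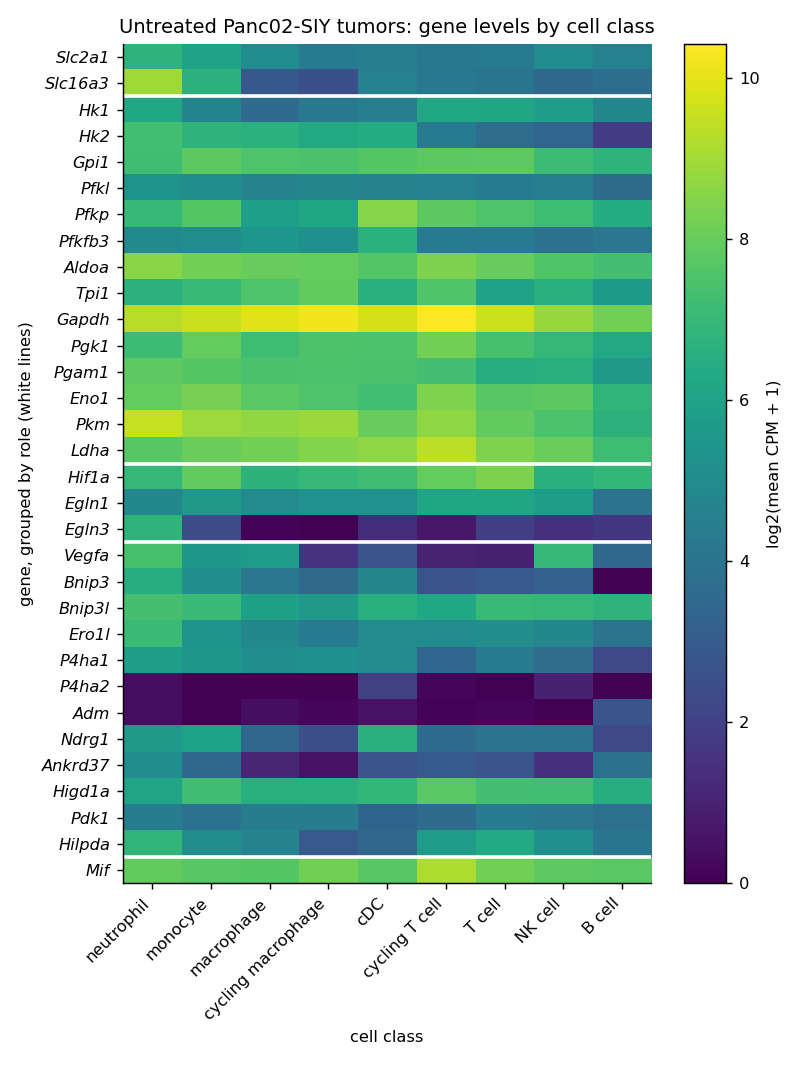
Mean level of the 32 genes in 9 cell classes of untreated Panc02-SIY tumors. Rows are genes, grouped by role with white lines between roles, columns are classes, and color is log2 (mean CPM + 1) over libraries. The neutrophil column is the brightest of its row for Slc16a3, Egln3 and Ero1l, and the cycling T cell column for Ldha, Gapdh and Mif.

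Slc16a3, which encodes the lactate exporter MCT4, stood at 485 ± 98.2 CPM in neutrophils against 103 ± 34.6 in monocytes, the next class, and 4.87 in cycling macrophages (n = 3). Egln3, the prolyl hydroxylase that is itself induced by HIF, stood at 108 ± 35.0 CPM in neutrophils and at 4.15 ± 3.53 in monocytes. Ero1l, an endoplasmic reticulum oxidase, reached 137 ± 30.8 CPM in neutrophils and 41.5 ± 22.0 in monocytes. Neutrophils thus held the top level of a transporter, a sensor and a target in the same libraries. Slc2a1, the basal glucose transporter GLUT1, read 109.8 ± 14.8 CPM in neutrophils and 63.1 ± 35.2 in monocytes, where the libraries overlapped. Vegfa, the vascular growth factor, read 166 ± 7.39 CPM in neutrophils and 122 ± 25.5 in NK cells, which also overlapped, and 0.863 in T cells.

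Among glycolysis enzymes, cycling T cells led for Ldha, the lactate dehydrogenase A subunit, at 676 ± 91.9 CPM, against 402 ± 49.7 in cDCs, the next class. Gapdh stood at 1374 ± 289 CPM in cycling T cells and 802 ± 133 in other T cells, and was lowest in B cells at 293 ± 106. Mif, a cytokine with tautomerase activity, stood at 561 ± 62.4 CPM in cycling T cells and 205 in macrophages, its lowest class. Pkm, pyruvate kinase, was highest in neutrophils at 720.3 ± 113 CPM. Pfkp, the platelet-type phosphofructokinase, and Pfkfb3, which makes its activator fructose 2,6-bisphosphate, were highest in cDCs, at 372 ± 151 and 99.8 ± 58.6 CPM. Hif1a, the oxygen-regulated HIF subunit, was highest in T cells at 328 ± 38.4 CPM, followed by cycling T cells at 247 ± 35.7, whose libraries overlapped with them, and monocytes at 241 ± 55.1, and was lowest in NK cells at 95.9 ± 16.9. Adm and P4ha2 had 55 and 279 UMIs in all libraries together and are not described further. Gapdh, Ldha, Eno1, Tpi1, Pgam1 and Mif have processed pseudogenes, and reads that match several genes equally were not counted, so their levels may be low.

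The first comparison asked whether macrophages of the tumors differed in these genes without treatment. Differences between groups were tested on UMI counts summed per library and class with edgeR's quasi-likelihood test. Genes that had both an adjusted p under 0.1 and a change of more than 1.3-fold count as called. Of the 30 listed genes tested, all but Adm and P4ha2, 25 were higher in MC38 NT macrophages and 0 were lower, against 24.6% of all 10218 genes called higher and 49.5% called in either direction. Transport genes counted 2 of 2, glycolysis enzymes 12 of 14, oxygen-sensing genes 2 of 3, hypoxia-response genes 8 of 10 and Mif 1 of 1. The median log2 difference was 1.26 over the listed genes and 0.00 over all genes, and the libraries did not overlap for 22 of the listed genes and for 34.6% of all genes. After 12 Gy, 26 of the 30 were higher and 0 lower in MC38 RT macrophages against Panc02-SIY RT macrophages, with 25.4% of all genes called higher. The calls of both comparisons had 24 genes in common. The listed genes were chosen with earlier results of these data known and were not matched to all genes for abundance. The shares of all genes here and below are therefore no test of the list.

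**Figure D2:**
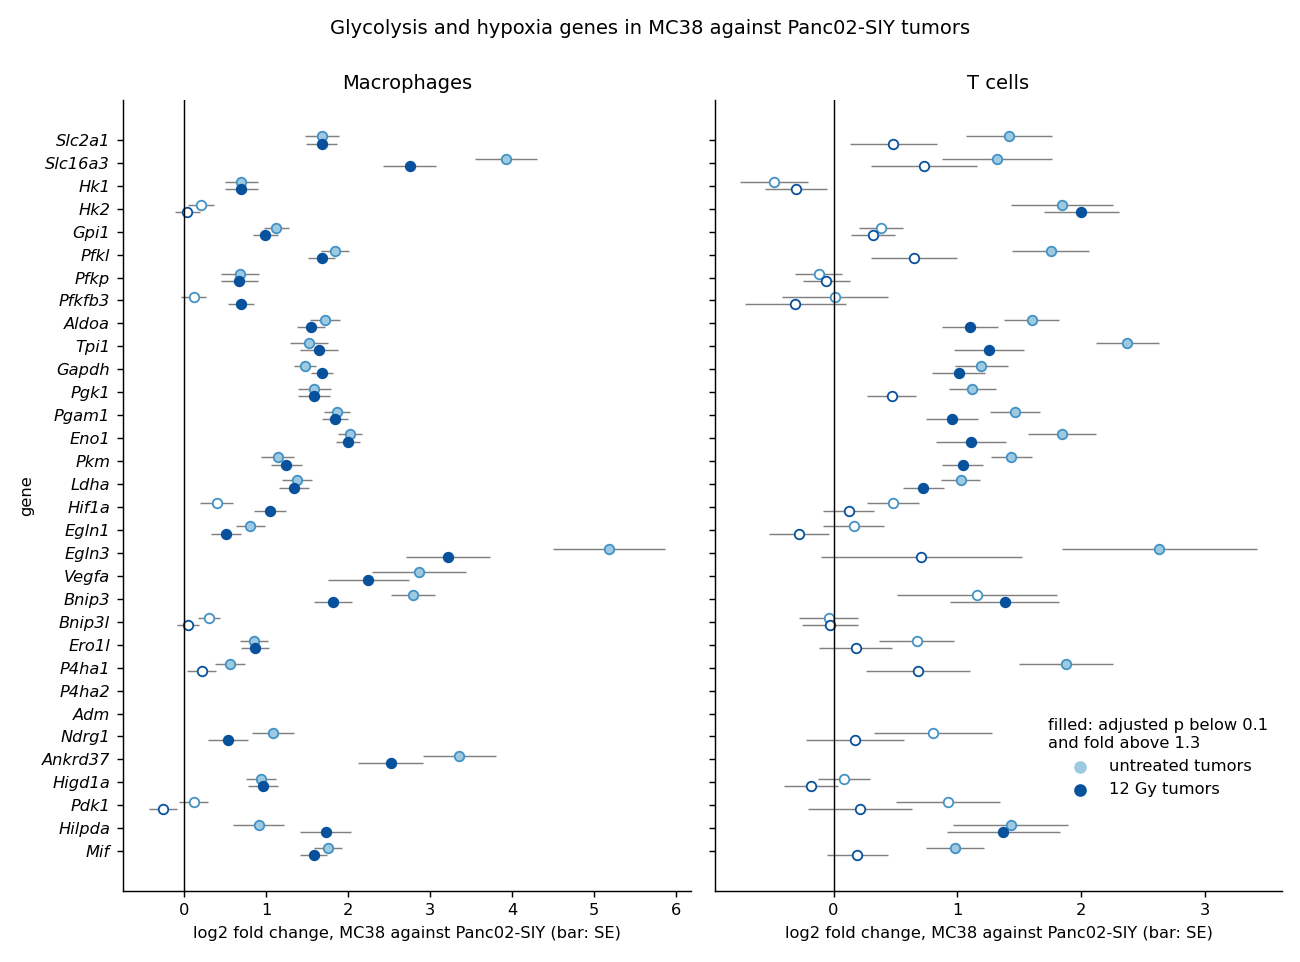
Log2 difference of MC38 against Panc02-SIY (points, with SE bars) for each listed gene tested, in macrophages and in T cells, without treatment (light) and after 12 Gy (dark). Filled points are called genes, with an adjusted p under 0.1 and more than 1.3-fold. In macrophages 25 genes without treatment and 26 after 12 Gy are filled, all to the right of 0.

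Slc16a3 read 81.2, 156, 119.5 and 133 CPM (scaled by edgeR's TMM factors, as all library values from here on) in the MC38 NT libraries and 0, 13.2, 3.80 and 7.27 CPM in Panc02-SIY NT. After 12 Gy it read 123, 146, 158 and 186 CPM in MC38 and 41.4, 28.02, 5.85 and 26.2 CPM in Panc02-SIY. Every MC38 library exceeded every Panc02-SIY library. The log2 difference was 3.92 ± 0.38 (SE, adjusted p = 9.6e-07) without treatment and 2.75 ± 0.33 (SE, adjusted p = 6.5e-06) after 12 Gy. Slc2a1 differed in the same direction, with 73.6, 105, 84.8 and 86.8 CPM in MC38 NT and 39.6, 33.5, 22.8 and 24.7 CPM in Panc02-SIY NT. Its log2 difference was 1.68 ± 0.20 (SE, adjusted p = 4e-07) without treatment and 1.68 ± 0.19 (SE, adjusted p = 1.5e-07) after 12 Gy.

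**Figure D3:**
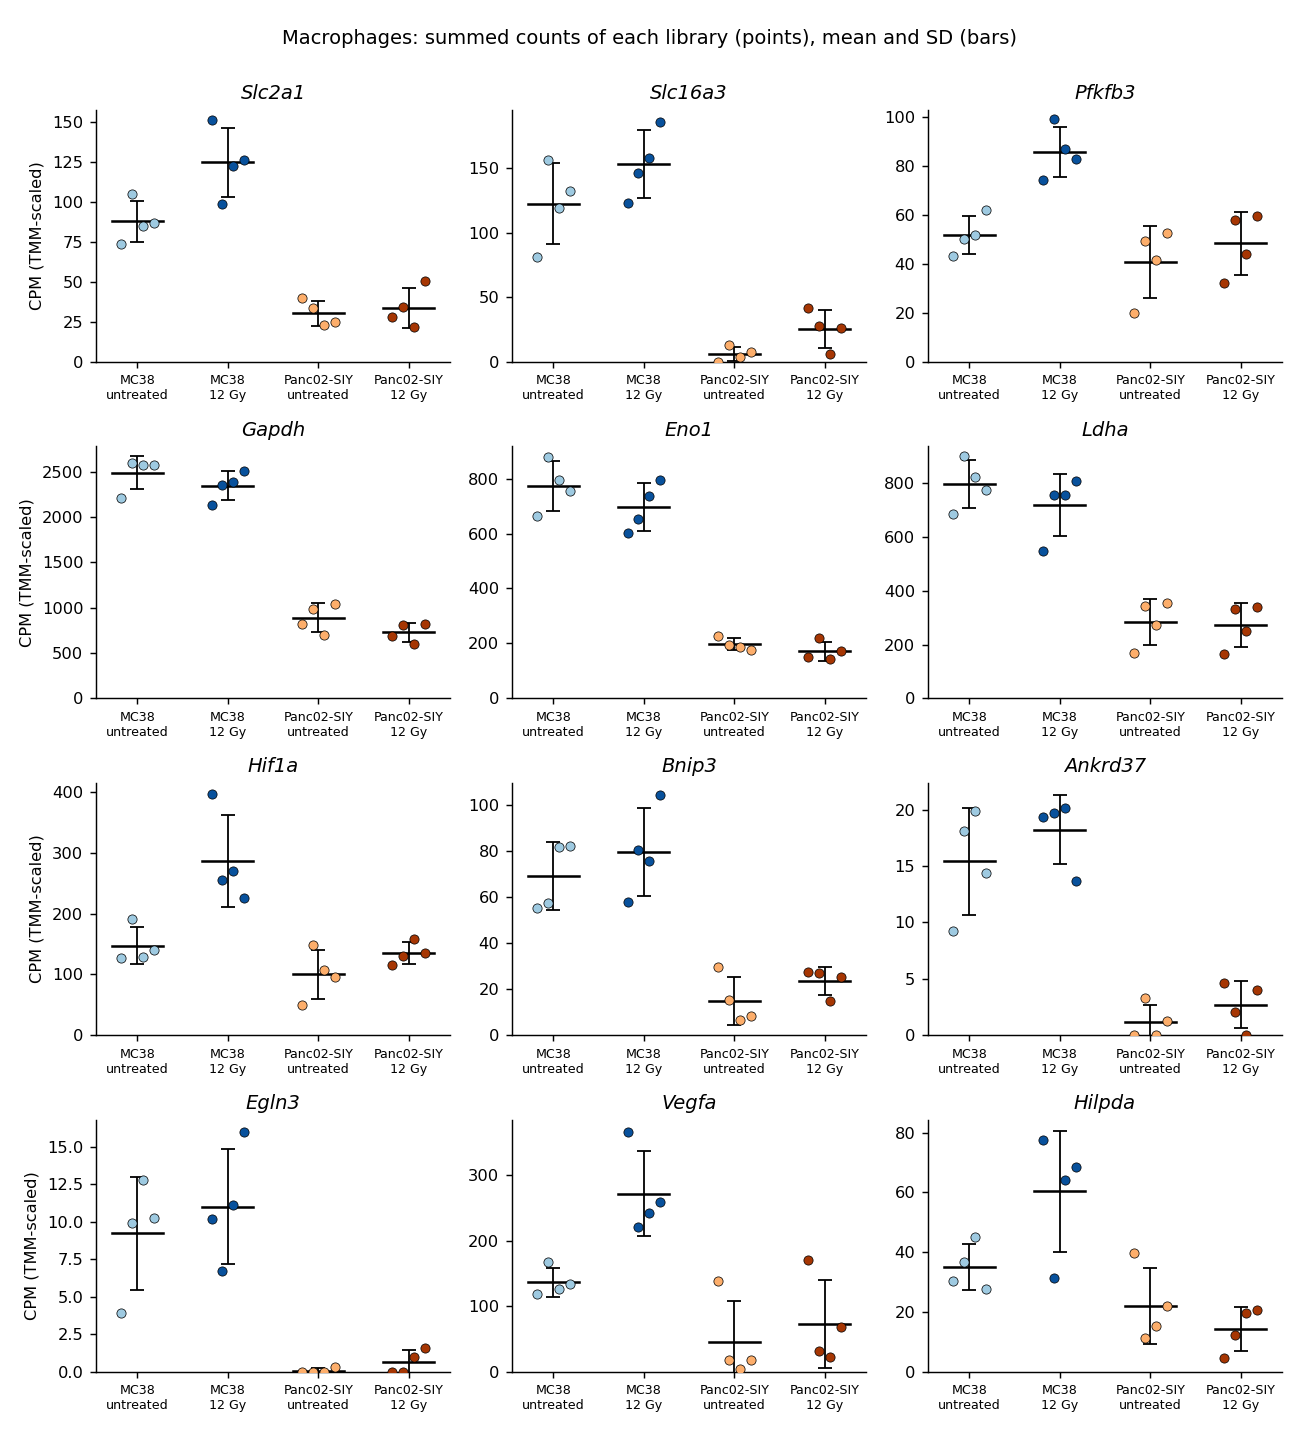
Level of 12 listed genes in macrophages, as TMM-scaled CPM per library (points) with the mean and SD of each group (bars), in MC38 NT, MC38 RT, Panc02-SIY NT and Panc02-SIY RT. Slc16a3, Eno1, Bnip3 and Ankrd37 lie higher in all 4 MC38 NT libraries than in all 4 Panc02-SIY NT libraries, and Hif1a and Pfkfb3 rise with 12 Gy in MC38.

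Along the glycolytic chain the folds were smaller than for Slc16a3. Eno1, enolase, read 662, 880.2, 796 and 756 CPM in MC38 NT and 228, 195, 187 and 176 CPM in Panc02-SIY NT. After 12 Gy the values were 602, 651, 735 and 796 CPM in MC38 and 152, 221, 143 and 172 CPM in Panc02-SIY, and the tumors did not overlap in either comparison. The log2 differences were 2.02 ± 0.15 (SE, adjusted p = 1.2e-11) and 2.00 ± 0.14 (SE, adjusted p = 1.2e-11). Aldoa, aldolase A, read 642, 983, 856 and 846 CPM in MC38 NT against 168, 282, 198 and 303 CPM in Panc02-SIY NT, a log2 difference of 1.72 ± 0.18 (SE, adjusted p = 3.6e-08). Pgam1, phosphoglycerate mutase, read 501, 695, 581 and 617 CPM against 149, 214, 125 and 155 CPM, a log2 difference of 1.86 ± 0.16 (SE, adjusted p = 7e-10). Both were again without overlap.

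After 12 Gy Pgam1 read 452, 525, 529.7 and 607 CPM in MC38 and 91.9, 174, 139 and 158 CPM in Panc02-SIY, and its log2 difference was 1.84 ± 0.16 (SE, adjusted p = 5.9e-10). Pfkl, the liver-type phosphofructokinase, read 67.7, 93.3, 69.6 and 77.5 CPM in MC38 NT and 29.7, 21.0, 15.2 and 23.0 CPM in Panc02-SIY NT, a log2 difference of 1.84 ± 0.17 (SE, adjusted p = 1.7e-09). After 12 Gy it read 92.8, 91.6, 78.7 and 90.4 CPM and 13.8, 27.0, 19.5 and 32.7 CPM, a log2 difference of 1.68 ± 0.17 (SE, adjusted p = 5.6e-09). Neither gene overlapped between the tumors. Gapdh read 2129, 2357, 2384 and 2509.8 CPM in MC38 RT and 685, 807, 600.5 and 820.1 CPM in Panc02-SIY RT, where its log2 difference was 1.68 ± 0.14 (SE, adjusted p = 1.4e-10), beside 1.48 without treatment. Mif read 623, 826, 736 and 697 CPM in MC38 NT and 99.1, 258, 185 and 234 CPM in Panc02-SIY NT, with a log2 difference of 1.75 ± 0.17 (SE, adjusted p = 4.1e-09). Both were higher in every MC38 library. The other called enzymes, Pgk1, Tpi1, Ldha, Pkm, Gpi1, Hk1 and Pfkp, differed by log2 values from 0.68 (Pfkp) to 1.59 (Pgk1) without treatment and were called after 12 Gy as well. Hk2, the inducible hexokinase, was not called in either comparison, at 0.21 (adjusted p = 0.29) and 0.04 (adjusted p = 0.86). Sums over the 14 enzymes are given without TMM scaling. Macrophages held 7855 ± 853 CPM of them in MC38 NT, 7043 ± 551 in MC38 RT, 3084 ± 355 in Panc02-SIY NT and 2786 ± 524 in Panc02-SIY RT (SD, n = 4).

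Among the sensors and targets, Egln3 had 184 UMIs of 19463105 in MC38 NT macrophages and 2 of 8753915 in Panc02-SIY NT macrophages. Per library this was 3.92, 9.93, 12.8 and 10.3 CPM in MC38 NT and 0, 0, 0 and 0.303 CPM in Panc02-SIY NT, so that 3 of the 4 Panc02-SIY NT libraries held none. The ratio of the summed rates was 41.4, with a 95% counting interval of 11.3 to 344, which covers counting error only. After 12 Gy it read 10.2, 6.70, 11.1 and 15.998 CPM in MC38 and 0, 0, 0.975 and 1.61 CPM in Panc02-SIY, from 166 and 9 UMIs, a ratio of 9.10 with an interval of 4.68 to 20.3. The adjusted p of edgeR's test was 6.5e-07 without treatment and 1e-05 after 12 Gy. Ankrd37, an ankyrin-repeat gene induced by HIF, read 9.24, 18.1, 19.9 and 14.4 CPM in MC38 NT and 0, 3.29, 0 and 1.21 CPM in Panc02-SIY NT. After 12 Gy the values were 19.4, 19.7, 20.2 and 13.7 CPM in MC38 and 4.60, 2.08, 0 and 4.03 CPM in Panc02-SIY. The MC38 libraries lay above all of the Panc02-SIY libraries in both comparisons, and the log2 difference was 3.36 ± 0.45 (SE, adjusted p = 9.6e-07) without treatment and 2.52 ± 0.40 (SE, adjusted p = 1.2e-05) after 12 Gy.

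Bnip3, a mitophagy receptor, read 55.4, 57.5, 81.8 and 82.2 CPM in MC38 NT and 29.7, 15.1, 6.33 and 8.48 CPM in Panc02-SIY NT. After 12 Gy it read 58.1, 80.4, 75.8 and 105 CPM in MC38 and 27.6, 27.0, 14.6 and 25.2 CPM in Panc02-SIY. The tumors did not overlap in either comparison, at log2 differences of 2.79 ± 0.27 (SE, adjusted p = 2.9e-08) and 1.81 ± 0.23 (SE, adjusted p = 1.8e-06). Vegfa read 118, 167, 125 and 134 CPM in MC38 NT and 139, 18.4, 3.80 and 17.6 CPM in Panc02-SIY NT. Here Panc02-SIY NT replicate 1, which held 14 macrophage barcodes and 83313 UMIs, lay among the MC38 libraries, and the log2 difference was 2.87 ± 0.58 (SE, adjusted p = 0.0013). After 12 Gy Vegfa read 365, 220.3, 242 and 259 CPM in MC38 and 170.1, 32.2, 22.4 and 67.6 CPM in Panc02-SIY, now without overlap, and differed by 2.25 ± 0.49 (SE, adjusted p = 0.0024). Without Panc02-SIY NT replicate 1, 25 listed genes were called higher in MC38 NT, a count given without the share of all genes. Hilpda, a lipid droplet protein, read 77.5, 31.3, 64.1 and 68.7 CPM in MC38 RT and 4.60, 12.5, 19.5 and 20.8 CPM in Panc02-SIY RT, without overlap, and its log2 difference was 1.73 ± 0.31 (SE, adjusted p = 0.00024) after 12 Gy and 0.91 without treatment. Hif1a differed by 0.40 ± 0.20 (SE, adjusted p = 0.11) without treatment and by 1.04 ± 0.20 (SE, adjusted p = 0.00019) after 12 Gy. Bnip3l, at 0.30 and 0.05, and Pdk1, the kinase that inhibits pyruvate dehydrogenase, at 0.12 and -0.26, were not called in either comparison. Ndrg1, Higd1a, Ero1l and Egln1 were called in both, at 1.08, 0.93, 0.85 and 0.81 without treatment. Within cluster 4, the macrophage cluster that both tumors filled, Ero1l had the opposite sign and was not called, at -0.30 without treatment and -0.64 after 12 Gy. P4ha1 was called without treatment (0.56, and 0.21 after 12 Gy) and Pfkfb3 after 12 Gy (0.70, and 0.12 without treatment).

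Because the macrophage classes were made of different clusters, levels were also set side by side by cluster, without TMM scaling. The 14 enzymes summed to 7677 ± 795 CPM in cluster 0 (SD, 8 libraries, all MC38), 3530 ± 1364 in cluster 4 (12 libraries of both tumors) and 3051 ± 356 in cluster 26 (6 libraries, all Panc02-SIY). For the summed 12 hypoxia-response genes cluster 4 lay near cluster 0 instead, at 681 ± 82.9 CPM in cluster 0, 658 ± 200 in cluster 4 and 328 ± 53.5 in cluster 26. Within cluster 4 alone, 12 of 22 genes tested were higher and 0 lower in MC38 NT (22.1% of all genes called), and 11 were higher and 1, Pfkp, lower in MC38 RT (25.1%). The Panc02-SIY libraries held only 6753 to 42758 UMIs there. Without cluster 4 the counts were 25 and 26 higher, with 52.5% and 52.8% of all genes called. Beside these differences, the macrophage marker sum was 21934 to 27991 CPM in MC38 and 11259 to 20413 CPM in Panc02-SIY macrophages, with all 12 markers detected in each group, and the sum of 9 monocyte markers was 2041 to 4193 CPM against 47.1 to 648 CPM. The part of these marker differences in the result was not tested.

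Outside the 32 genes, lists of related genes were read in the same untreated macrophages, against 24.6% of all genes higher and 24.9% lower. Of 15 other glycolysis and glucose genes tested, 7 were higher and 3 lower in MC38 NT, among them Slc2a6 (4.52), Ldhb (3.34) and Aldoc (1.72) upward and Adpgk (-1.33), an ADP-dependent glucokinase, downward. Of 31 other hypoxia and HIF genes 12 were higher and 3 lower, led by Arg1, arginase 1, a leading gene of cluster 0, and followed by Spp1, osteopontin (6.64), Cxcr4 (2.41) and Bhlhe40 (2.40). Of 16 TCA cycle genes 5 were higher and 1 lower, and of 7 pentose phosphate genes 4 were higher and 1 lower.

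T cells of the tumors were compared in the same way, at a much lower depth in MC38, where a library held 10 to 45 T cell barcodes and 42754 to 337191 UMIs, against 262 to 1211 barcodes and 1604506 to 9990799 UMIs in Panc02-SIY. Of 28 genes tested, 16 were higher in MC38 NT T cells and 0 lower, against 6.7% of all 8286 genes called higher, 6.59% lower and 13.3% in either direction. Glycolysis enzymes made up 10 of the 16. The median log2 difference was 1.14 over the listed genes and -0.04 over all, and 11 listed genes and 17.8% of all genes did not overlap. After 12 Gy 10 were higher and 0 lower (7.08% of all genes higher), and 9 genes were called in both comparisons. Without MC38 RT replicate 3 or replicate 4 the count after 12 Gy was 6 or 5, and with shared barcodes kept in every library it was 16. No share of all genes is given for these counts. With shared barcodes kept, the same barcode enters several MC38 libraries, which cannot then be taken as independent.

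Tpi1, triosephosphate isomerase, read 189.6, 483, 427 and 304 CPM in MC38 NT T cells and 59.1, 80.4, 50.4 and 77.8 CPM in Panc02-SIY NT T cells. All MC38 libraries were higher, and the log2 difference was 2.37 ± 0.25 (SE, adjusted p = 1.2e-05). Pkm read 777, 769, 591 and 625 CPM in MC38 NT and 253, 250.4, 224 and 286 CPM in Panc02-SIY NT, with a log2 difference of 1.44 ± 0.16 (SE, adjusted p = 6.9e-07). Eno1 read 445, 1419, 524 and 816 CPM and 231, 249, 179 and 228 CPM, with a log2 difference of 1.84 ± 0.27 (SE, adjusted p = 0.00044). Neither gene overlapped between the tumors. Aldoa read 607, 1173, 674 and 861 CPM in MC38 NT and 249.6, 299, 228 and 313 CPM in Panc02-SIY NT, a log2 difference of 1.60 ± 0.22 (SE, adjusted p = 4.7e-05). Pgam1 read 123, 286, 322 and 282 CPM and 93.1, 105, 87.7 and 88.3 CPM, a log2 difference of 1.47 ± 0.20 (SE, adjusted p = 1.2e-05). Pfkl read 37.9, 98.5, 59.9 and 78.8 CPM and 20.5, 23.4, 18.1 and 20.1 CPM, a log2 difference of 1.75 ± 0.31 (SE, adjusted p = 0.00032). These 3 enzymes did not overlap either.

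After 12 Gy the largest log2 difference in T cells was that of Hk2, which read 138, 38.8, 86.5 and 71.4 CPM in MC38 RT and 13.6, 20.5, 18.8 and 27.2 CPM in Panc02-SIY RT, without overlap, and differed by 2.00 ± 0.30 (SE, adjusted p = 4.7e-05). The MC38 RT T cell libraries held 80184, 42115, 224370 and 332225 UMIs of the genes tested, so its MC38 values rested on few UMIs. Eno1 read 427, 252, 446 and 539 CPM and 197, 245, 159.6 and 218 CPM and differed by 1.11 ± 0.29 (SE, adjusted p = 0.021). Aldoa read 358, 329.7, 655 and 759.7 CPM and 207, 303, 235 and 314 CPM and differed by 1.10 ± 0.22 (SE, adjusted p = 0.0026). These genes, with Pkm and Ldha, were the 5 called genes whose libraries did not overlap, of 28 tested. Of all genes 17.4% did not overlap, a share near that of the listed genes. Pkm read 473, 368, 537 and 503 CPM and 178, 266, 218 and 277 CPM and differed by 1.04 ± 0.17 (SE, adjusted p = 9.3e-05). Ldha read 369, 407, 632 and 532 CPM and 268, 354, 287 and 316 CPM and differed by 0.73 ± 0.16 (SE, adjusted p = 0.0038). The other 5 called genes had libraries in common ranges. Tpi1 read 57.7, 155, 187 and 195 CPM and 50.1, 75.7, 69.5 and 76.0 CPM (1.26 on the log2 scale), Gapdh 1003, 756, 1392 and 1629.8 CPM and 458, 739.7, 481 and 778 CPM (1.01), and Pgam1 92.3, 175, 141 and 214 CPM and 85.4, 83.8, 74.9 and 96.3 CPM (0.96). Bnip3 read 23.1, 0, 31.9 and 39.0 CPM and 10.52, 14.4, 7.97 and 13.3 CPM (1.38), and Hilpda 242, 97.0, 137 and 289 CPM and 56.3, 65.2, 60.6 and 134 CPM (1.37).

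Several T cell differences rested on few UMIs in MC38. Egln3 read 37.9, 0, 29.9 and 5.63 CPM in MC38 NT and 2.97, 2.64, 4.01 and 1.965 CPM in Panc02-SIY NT, with overlap, at a log2 difference of 2.63 ± 0.79 (SE, adjusted p = 0.031). P4ha1, a collagen prolyl hydroxylase, read 9.48, 49.3, 119.8 and 84.5 CPM and 19.1, 25.5, 16.7 and 15.7 CPM, Hk2 9.48, 69.0, 44.9 and 56.3 CPM and 14.9, 12.6, 10.7 and 13.3 CPM, and Hilpda 284, 128, 269 and 242 CPM and 65.7, 70.4, 66.0 and 141 CPM. All of these overlapped and were called, at 1.88, 1.84 and 1.43. The other 6 called genes, Slc2a1, Slc16a3, Gapdh, Pgk1, Ldha and Mif, differed by log2 values from 0.98 (Mif) to 1.42 (Slc2a1). The T cell classes also differed in make-up. Cluster 8 held 48.1% of MC38 NT and 41.5% of MC38 RT T cells, against 5.66% and 7.85% in Panc02-SIY. Cluster 19, led by Cd8b1 and Cd8a, held 11.7% and 10.4% in MC38 against 63.0% and 52.2% in Panc02-SIY. Without TMM scaling, the glycolysis enzymes summed to 3610 ± 807 CPM in cluster 8 (SD, 11 libraries) and 2650 ± 239 in cluster 19 (8 libraries). The part of this make-up in the T cell differences was not tested. In cluster 8, the T cell cluster that most libraries of both tumors filled with enough barcodes, which is led by regulatory T cell genes, 4 of 20 genes tested were higher without treatment (Tpi1, Aldoa, Eno1 and Gapdh, 5.81% of all genes called) and 3 after 12 Gy (Hilpda, Aldoa and Gapdh, 3.38%), with 0 lower in either. Slc16a3 had the opposite sign there without treatment (-0.78) and was not called. The sum of 12 macrophage markers in the T cell class, all detected in each group, was 711 to 2642 CPM in MC38 and 167 to 430 CPM in Panc02-SIY, and that of 14 immediate early genes 4746 to 12560 against 2849 to 5357 CPM. Their part in the T cell differences was not tested.

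The treatment comparison asked what 12 Gy changed within each tumor 24 h later. In MC38 macrophages 4 of 30 listed genes rose and 0 fell, against 7.63% of all genes called higher, 6.56% lower and 14.2% in either direction. Hif1a read 127, 192, 128 and 140.5 CPM in MC38 NT and 398, 256, 271 and 226 CPM in MC38 RT, without overlap, and rose by 0.95 ± 0.18 (SE, adjusted p = 0.0014) on the log2 scale. Pfkfb3 read 43.4, 50.4, 51.9 and 61.9 CPM and 74.4, 99.2, 86.9 and 82.8 CPM, also without overlap, and rose by 0.72 ± 0.13 (SE, adjusted p = 0.00057). Of the listed genes 3 of 30 did not overlap, against 22.1% of all genes. Slc2a1 read 73.6, 105, 84.8 and 86.8 CPM and 151, 98.8, 122 and 126 CPM and rose by 0.50 ± 0.16 (SE, adjusted p = 0.042), with replicate 2 of MC38 RT inside the untreated range. Hilpda read 30.5, 36.9, 45.2 and 27.7 CPM and 77.5, 31.3, 64.1 and 68.7 CPM and rose by 0.78 ± 0.24 (SE, adjusted p = 0.046), again with replicate 2 of MC38 RT among the untreated libraries. Without MC38 RT replicate 1, the shallowest library, Hif1a and Pfkfb3 were the 2 genes still called, and the adjusted p of Slc2a1 was 0.156. Without MC38 NT replicate 1 the count was 2 as well.

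Vegfa read 118, 167, 125 and 134 CPM in MC38 NT and 365, 220.3, 242 and 259 CPM in MC38 RT, without overlap, but at 0.98 ± 0.41 (SE, adjusted p = 0.16) it was not called. The glycolysis enzymes other than Pfkfb3 were not called, at log2 changes such as -0.14 for Ldha, -0.15 for Eno1 and 0.36 for Hk2, and the median over the listed genes was 0.13 against 0.01 for all genes, but -0.02 without MC38 RT replicate 4 and 0.03 without MC38 NT replicate 1. Within cluster 4 alone 5 genes were lower after 12 Gy, Eno1 (-0.80), Mif (-0.79), Gapdh (-0.74), Pgam1 (-0.63) and Ldha (-0.57), and 3 were higher, Hif1a (0.75), Vegfa (0.74) and Pfkp (0.69), with 8.36% of all genes called. Without cluster 4, 6 genes were called, all higher (14.4% of all genes). In the whole class, the sum of 8 cycling markers was 502 to 754 CPM in MC38 NT and 124 to 192 CPM in MC38 RT, the immediate early genes summed to 8213 to 9399 and 10736 to 12015 CPM, and the monocyte markers to 2041 to 3084 and 3228 to 4193 CPM. All of these sums moved with the treatment without overlap, and their part in the result was not tested.

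Of the other hypoxia and HIF genes, 6 of 31 rose in MC38 macrophages and 0 fell, against 7.63% of all genes higher and 6.56% lower, among them Ddit4 (1.37), a stress-induced inhibitor of mTORC1, Arg1 (1.16), Ppp1r3b (0.71), a glycogen-targeting phosphatase subunit, and Cxcr4 (0.71). Of 15 other glycolysis genes Hk3 (0.76) and Pfkfb4 (0.39) rose and Aldoc (-0.77) fell. Of 16 TCA cycle genes 2 fell, Fh1, fumarate hydratase (-0.86), and Idh3a (-0.47), and of 7 pentose phosphate genes 0 were called. Of 14 immediate early genes 8 rose, with Egr2 at 0.98 and Dusp1 at 0.78.

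In MC38 T cells edgeR called 0 of 28 genes after 12 Gy (0.253% of all genes, 0.205% higher and 0.0483% lower), with 11 at an unadjusted p under 0.05 and 1 gene, which fell, called by DESeq2. No share of all genes is given for either of these counts. The median log2 change of the 14 glycolysis enzymes was -0.53, with 0 called, and stands here without the median over all genes. Tpi1 had the untreated and irradiated MC38 values given above, a log2 change of -1.08 ± 0.31 (SE, adjusted p = 0.23).

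In Panc02-SIY macrophages 1 of 30 genes was called, against 0.92% of all genes called higher, 1.46% lower and 2.38% in either direction. Bnip3 read 29.7, 15.1, 6.33 and 8.48 CPM in Panc02-SIY NT and 27.6, 27.0, 14.6 and 25.2 CPM in Panc02-SIY RT, with overlap, and rose by 1.21 ± 0.32 (SE, adjusted p = 0.064). It was not called without Panc02-SIY NT replicates 3 or 4 or Panc02-SIY RT replicates 1, 2 or 4, each left out in turn. Slc16a3 changed by 1.52 ± 0.46 (SE, adjusted p = 0.14) and Vegfa by 1.60 ± 0.63 (SE, adjusted p = 0.29), with 9 listed genes at an unadjusted p under 0.05. The median change was 0.21 over the listed genes and 0.01 over all, but 0.01 over the listed genes without Panc02-SIY RT replicate 4 and 0.33 without Panc02-SIY NT replicate 4. The test of the difference between the radiation responses of MC38 and Panc02-SIY macrophages called 0 of 30 genes with edgeR and 0 with DESeq2 (0.0783% of all genes with edgeR), with 4 at an unadjusted p under 0.05. Hif1a differed between the responses by 0.65 ± 0.28 (SE, adjusted p = 0.67), so the change in MC38 is not shown to differ from that in Panc02-SIY. In T cells that test called 0 of 28 genes with either tool (0.0121% of all genes with edgeR), with 5 at an unadjusted p under 0.05.

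**Figure D4:**
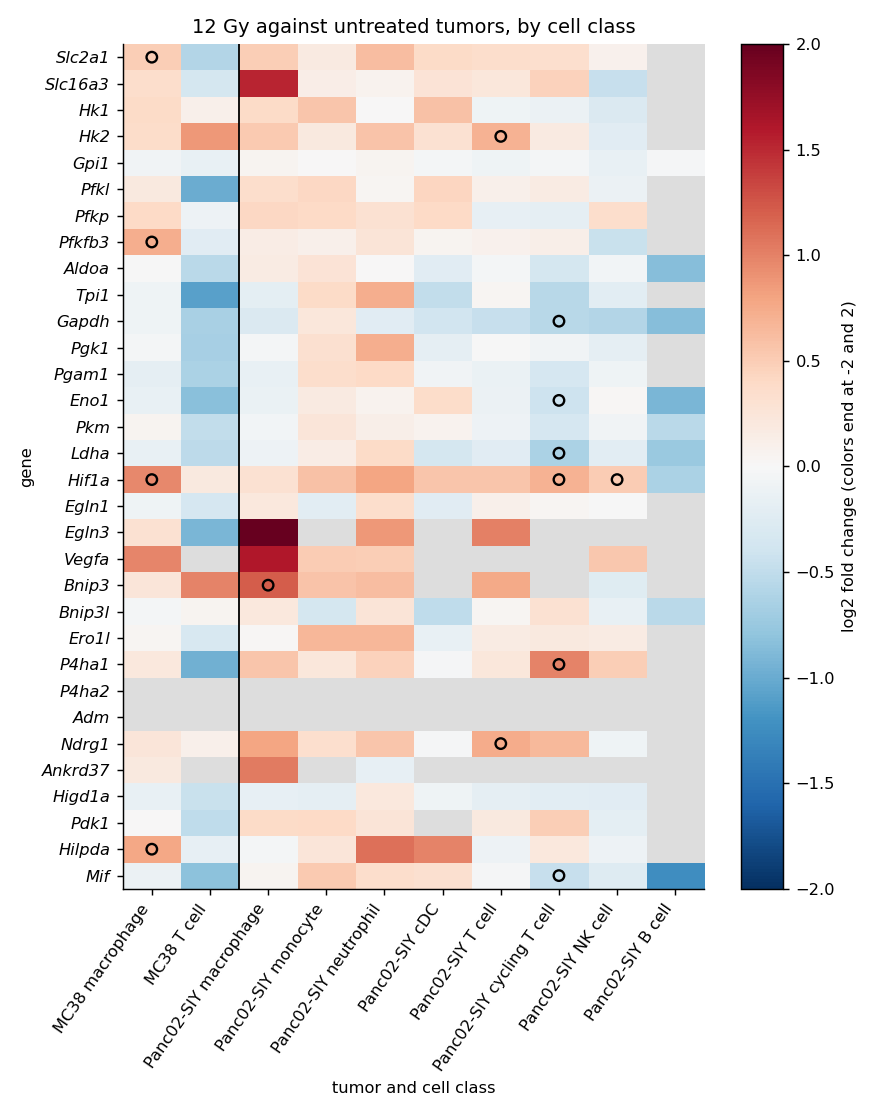
Log2 change after 12 Gy for each listed gene (rows) in macrophages and T cells of MC38 and in 8 cell classes of Panc02-SIY (columns). Circles mark called genes, with an adjusted p under 0.1 and more than 1.3-fold, gray cells were not tested, and the colors end at -2 and 2. Hif1a is circled in MC38 macrophages and in cycling T cells and NK cells of Panc02-SIY.

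Cycling T cells of Panc02-SIY had the most listed genes called of the 8 Panc02-SIY classes tested, with 4 lower and 2 higher of 26 tested. Of all genes, 7.39% were called lower, 7.5% higher and 14.9% in either direction. That was also the largest share of all genes among these classes, with NK cells next at 2.9%, so the ranking is not particular to the listed genes. The 4 that fell were Ldha, Gapdh, Eno1 and Mif. Ldha read 652, 732, 611 and 862 CPM in Panc02-SIY NT and 326, 471, 446 and 543 CPM in Panc02-SIY RT, without overlap, a log2 change of -0.64 ± 0.13 (SE, adjusted p = 0.0049). Gapdh read 1272, 1475, 1151 and 1919.6 CPM and 877, 974, 822 and 1249.5 CPM, with overlap, a change of -0.56 ± 0.16 (SE, adjusted p = 0.042). Every irradiated library lay below every untreated one for Ldha, and all but replicate 4 did for Gapdh. Mif read 611, 569, 508 and 682 CPM and 551, 415, 384 and 415 CPM, a change of -0.46 ± 0.12 (SE, adjusted p = 0.02). Eno1 read 363, 384, 298 and 393 CPM and 252, 322, 216 and 288 CPM, a change of -0.41 ± 0.13 (SE, adjusted p = 0.049), and both overlapped.

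In the same cells 2 genes rose. Hif1a read 204, 294, 272 and 273 CPM in Panc02-SIY NT and 360.4, 527, 348 and 453 CPM in Panc02-SIY RT, without overlap, and changed by 0.70 ± 0.14 (SE, adjusted p = 0.0028). P4ha1 read 7.97, 10.6, 6.54 and 14.9 CPM and 13.6, 29.3, 21.1 and 20.4 CPM, with overlap, and changed by 1.00 ± 0.29 (SE, adjusted p = 0.029). Other central carbon genes were called lower only, against 7.39% of all genes: 7 of 16 TCA cycle genes, among them Suclg1 (-0.78), Fh1 (-0.74) and Sdhb (-0.62), and 3 of 7 pentose phosphate genes, G6pdx (-0.93), Tkt (-0.57) and Taldo1 (-0.42). Of 23 other hypoxia and HIF genes tested 6 rose, with Ddit4 at 1.56, Rora at 1.31, Ppp1r3b at 1.22 and Cxcr4 at 0.81. The class held 819 barcodes before and 279 after 12 Gy, with 11 in Panc02-SIY RT replicate 1. Its NK marker sum was 2702 to 3136 CPM in NT and 671 to 2990 CPM in RT libraries and its cycling marker sum 3076 to 4514 and 2654 to 4841 CPM, and their part in the result was not tested.

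Non-cycling T cells of Panc02-SIY had 2 of 28 genes called, both higher, against 1.21% of all genes higher, 0.615% lower and 1.82% in either direction. Ndrg1, a stress-response gene, read 14.9, 19.2, 14.3 and 13.9 CPM in Panc02-SIY NT and 27.2, 27.0, 29.0 and 21.5 CPM in Panc02-SIY RT, without overlap, and rose by 0.74 ± 0.20 (SE, adjusted p = 0.057). Hk2 read 14.9, 12.6, 10.7 and 13.3 CPM and 13.6, 20.5, 18.8 and 27.2 CPM, with overlap, and rose by 0.70 ± 0.21 (SE, adjusted p = 0.097). Leaving out any library of Panc02-SIY brought these calls to 0 or 1, and within cluster 8 alone 0 of 20 genes were called with edgeR (0.371% of all genes), with 2 at an unadjusted p under 0.05. In NK cells 1 of 28 genes was called (2.9% of all genes), Hif1a, at 85.5, 123.8, 92.1 and 94.7 CPM in NT and 124.0, 131.8, 136.0 and 166.7 CPM in RT and a change of 0.51 ± 0.13 (SE, adjusted p = 0.045), and it was not called without Panc02-SIY NT replicate 1, NT replicate 3 or RT replicate 3, each left out in turn.

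In the remaining classes of Panc02-SIY edgeR called none of the listed genes: 0 of 25 in cDCs (0.0625% of all genes), 0 of 28 in monocytes (0.0155%), 0 of 30 in neutrophils (0.0576%) and 0 of 9 in B cells (0%). At an unadjusted p under 0.05 there were 4, 2, 9 and 5 genes, and DESeq2 called 0, 0, 2 and 0. Few genes of any kind were called in these classes, and the B cell class held 70 barcodes in NT and 129 in RT. All 9 genes tested in B cells had a negative change, with a median of -0.75 against 0.00 for all genes. This median is given with all libraries in only. The B cell cluster was led by immunoglobulin genes. TMM factors were 0.700 and 0.824 in B cells of NT replicates 2 and 4, against 0.984 to 1.14 in the other libraries. The part of these in the B cell changes was not tested. In neutrophils 28 of 30 genes had a positive change, with a median of 0.35 against 0.00 for all genes. Without Panc02-SIY RT replicate 4 these were 18 of 30 and 0.03. That library stood apart in genes named here after their values were seen, at 502 (other RT libraries 122 to 173) CPM of Hk2, 504 (other RT libraries 169.6 to 288) of Ldha and 443 (other RT libraries 130.1 to 213) of Vegfa. In monocytes 25 of 28 changes were positive, with a median of 0.26 against -0.01, and the median was 0.15 without Panc02-SIY RT replicate 4 (17 of 27 positive), 0.13 without Panc02-SIY NT replicate 3 and 0.50 without Panc02-SIY NT replicate 2. Egln3 read 126, 155, 84.1 and 80.7 CPM in NT neutrophils and 162, 225, 172 and 253 CPM in RT neutrophils, without overlap, at 0.87 ± 0.22 (SE, adjusted p = 0.27).

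Hif1a was followed through all 8 Panc02-SIY classes, a gene chosen for this after its values were seen, as the listed gene called in the most of them. Its change was positive in 7 classes, the libraries of RT lay above those of NT without overlap in 6 (T cells, cycling T cells, NK cells, cDCs, monocytes and neutrophils), and it was called in 2. The classes come from the same libraries and are not independent. In T cells Hif1a read 370.4, 357, 354 and 298 CPM in NT and 448, 533, 568 and 466 CPM in RT, at 0.55 ± 0.18 (SE, adjusted p = 0.18). In neutrophils it read 129.9, 117, 122 and 136 CPM and 172, 190.4, 219 and 287 CPM, at 0.78 ± 0.19 (SE, adjusted p = 0.25). Neither change was called. Of all genes 11.3% did not overlap in T cells (3 of 28 listed), 14.2% in cycling T cells (3 of 26), 8.31% in NK cells (5 of 28), 5.33% in cDCs (2 of 25), 4.92% in monocytes (2 of 28) and 4.82% in neutrophils (2 of 30). In monocytes it read 176, 268, 238 and 329.6 CPM and 338, 345, 443 and 404 CPM, at 0.59 ± 0.17 (SE, adjusted p = 0.41). In cDCs it read 157, 167, 149 and 148 CPM and 244, 189.6, 260.2 and 221 CPM, at 0.56 ± 0.16 (SE, adjusted p = 0.32). Macrophages were the class where NT and RT overlapped with a positive change, at 49.5, 148, 108 and 94.99 CPM and 115, 131, 159 and 135 CPM and 0.31 ± 0.21 (SE, adjusted p = 0.58). B cells had a negative change, -0.63 ± 0.35 (SE, adjusted p = 0.49).

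**Figure D5:**
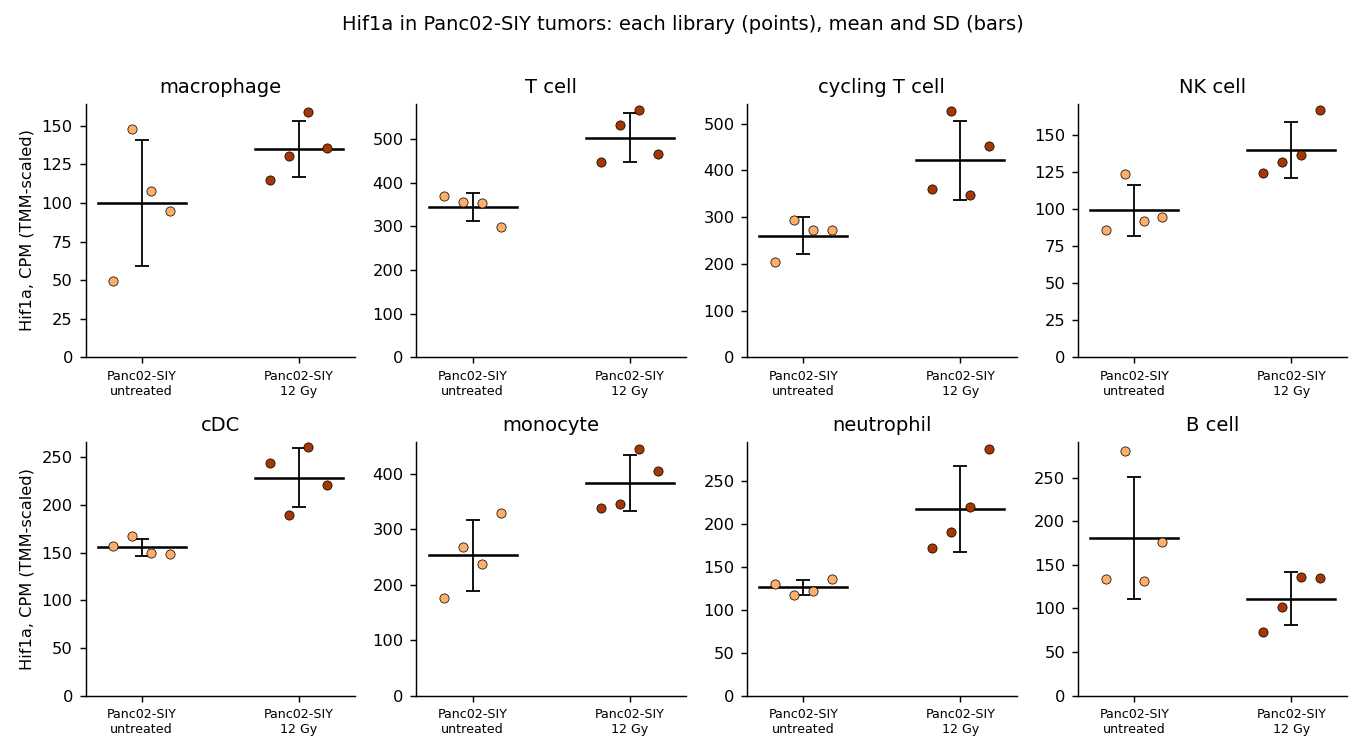
Hif1a in 8 cell classes of Panc02-SIY tumors, as TMM-scaled CPM per library (points) for NT and RT with the mean and SD of each group. The RT points lie above all NT points in 6 classes, and overlap with them in macrophages and B cells.

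Across the same 8 classes other genes picked from the list were mostly of 1 sign, with few calls. The share of all genes with a common sign across these classes was not counted. Gapdh was negative in 7 of 8 classes and called in 1, Ldha negative in 6 of 8 and called in 1, and Slc2a1 positive in all 7 classes where it was tested and called in 0. Vegfa was positive in all 4 classes where it was tested and called in 0. Signs were mixed for Bnip3, positive in 4 of 5 classes tested and called in 1, and for Ndrg1, positive in 5 of 7 and called in 1.

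With all CD45+ barcodes of a library summed, which mixes a change in cells with a change in their number, 6 of 31 genes rose after 12 Gy in MC38 and 0 fell, against 7.24% of all 12447 genes called higher, 4.45% lower and 11.7% in either direction. They were Vegfa (0.88), Hif1a (0.87), Pfkfb3 (0.66), Pfkp (0.49), Slc2a1 (0.41) and Hk1 (0.39). Without MC38 NT replicate 1, 3 were called, and with shared barcodes kept in every library 1 was, Hif1a. No share of all genes is given for these counts. With shared barcodes kept, many barcodes enter untreated and irradiated MC38 libraries alike, so the libraries cannot be taken as independent. In Panc02-SIY 8 rose and 2 fell, against 7.69% of all genes higher, 6.99% lower and 14.7% in either direction. Egln3 read 7.23, 6.48, 3.85 and 2.91 CPM in NT and 14.98, 17.7, 12.9 and 11.9 CPM in RT and rose by 1.53 ± 0.30 (SE, adjusted p = 0.0042). Bnip3, Slc16a3, Vegfa and Slc2a1 rose by 0.95, 0.89, 0.86 and 0.71, P4ha1, Hif1a and Ero1l by 0.45, 0.43 and 0.40, and Gapdh and Ldha changed by -0.56 and -0.47. Of the 8 genes that rose, all but Hif1a had their highest class level in neutrophils of Panc02-SIY NT, and the neutrophil marker sum of the same libraries was 847 to 2683 CPM in NT and 1642 to 4022 CPM in RT, with overlap. The monocyte marker sum was 1101 to 1569 CPM in NT and 1810 to 2758 CPM in RT, without overlap. The 3 clusters led by genes of non-immune cells (1, 25 and 28) held 10.6% of the UMIs of Panc02-SIY NT and 5.42% of those of Panc02-SIY RT, against 0.426% and 0.371% in MC38. In cluster 25 the enzymes summed to 4352 ± 97.8 CPM and the hypoxia-response genes to 1015 ± 151 CPM (SD, 3 libraries, without TMM scaling). Without these clusters 10 genes rose and 2 fell in Panc02-SIY (17.6% of all genes called) and 6 rose in MC38 (12.8%). The part of the immune cell make-up in these changes was not tested. The difference between the responses of the tumors was called for 0 of 31 genes with edgeR and with DESeq2 (0.345% of all genes with edgeR), with 5 at an unadjusted p under 0.05. Set against Panc02-SIY, MC38 NT had 22 of the listed genes higher and 2 lower (61.1% of all genes called), and MC38 RT had 21 higher and 1 lower (58.5%). The lower ones were Hk1 (-0.91) and Ndrg1 (-1.13) without treatment and Ndrg1 (-1.26) after 12 Gy. Without the non-immune clusters Ndrg1 was not called without treatment (-0.09). Both genes were higher in MC38 macrophages.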

How the data were processed

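The authors sequenced live CD45+ tumor cells as 16 10x 3′ libraries and deposited 1 matrix of UMI counts per gene and barcode for each. Per the submitters' processing notes the counts were made with bcl2fastq 2.20.0 and Cell Ranger 3.1.0 on mm10. A pooled matrix of the series was not used. The 32 genes and all other lists were chosen with earlier results of these data known.

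Barcodes found in several libraries of a tumor were kept in the library with most of their UMIs. The 20768 kept barcodes were clustered in scanpy 1.11.5 (Python 3.11.15) on 2000 variable genes without the 32 genes, 30 principal components, 20 neighbors and Leiden resolution 1, into 29 clusters. A cluster was named when at least 3 fixed markers of a class were raised in it, by a log2 value over 1 against the mean of the clusters. Clusters over 25% mitochondrial UMIs or of low depth stayed unnamed, a limit set after seeing the data, as did 1 led more by markers of another class. Scrublet marked 73 barcodes (0.35%) as doublets, too few to rely on, so doublets were left in and removing the top 5% per library (1046 barcodes) was an alternative.

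Counts were summed per library and class (at least 10 barcodes), filtered with filterByExpr, scaled by TMM and tested with edgeR 4.0.16 (robust quasi-likelihood F test, 1 coefficient per group, R 4.3.3) with Benjamini-Hochberg adjustment over all genes of the fit. The scripts were tested on simulated data. The call rule, an adjusted p below 0.1 and a fold above 1.3, follows the study's methods. Counts at an unadjusted p under 0.05 are of the listed genes only. The share of all genes at that cut is not given, so whether these counts exceed it cannot be judged. Classes too small in MC38 were fitted for Panc02-SIY alone, a choice made once class sizes were known. Values per library are given for called genes of a class comparison, at most 10 per comparison by size of change, and at most 4 called genes of each other list. Alternatives were DESeq2 1.42.0, size-factor (RLE) scaling, no filter on low counts, a replicate block, all barcodes, a cell filter (at least 500 genes, at most 10% mitochondrial UMIs), doublet removal, Leiden resolution 2 and leaving out each library. Fits within or without the cluster shared by both tumors, and without non-immune clusters, were added after seeing the data. The replicate numbers recur in every group, and the main fits did not pair libraries by them.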

Additional observations from a re-analysis of the deposited data

Results flagged for a closer look

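In 188 groups of 4 libraries, 11 held a library far from the other 3, where chance alone gives about 1 in 20 groups. In T cells Ndrg1 read 56.9 CPM in MC38 NT replicate 1, against 16.9 to 22.5 CPM in the other 3 libraries of that group, and Bnip3 read 37.4 CPM in MC38 NT replicate 3, against 5.63 to 9.85 CPM. Hilpda read 140.6 CPM in T cells of Panc02-SIY NT replicate 4, against 65.7 to 70.4 CPM, and 134 CPM in Panc02-SIY RT replicate 4, against 56.3 to 65.2 CPM. In macrophages Ankrd37 read 13.7 CPM in MC38 RT replicate 4, against 19.4 to 20.2 CPM, Gapdh 2214 CPM in MC38 NT replicate 1, against 2572 to 2600.1 CPM, and Pfkl 78.7 CPM in MC38 RT replicate 3, against 90.4 to 92.8 CPM. Egln3 read 0.303 CPM in macrophages of Panc02-SIY NT replicate 4 and 0 in the other 3. With those at 0, any value above 0 is flagged, and replicate 4 was the deepest of its group, at 6435924 macrophage UMIs of the genes tested. Vegfa read 138.7 CPM in macrophages of Panc02-SIY NT replicate 1, against 3.80 to 18.4 CPM. The 14 glycolysis enzymes, here with TMM scaling, summed to 4865 CPM in monocytes of Panc02-SIY RT replicate 4, against 3776 to 3869 CPM in the other 3 libraries. In neutrophils of the same library Hk2 read 502 CPM, against 122 to 173 CPM.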

How the results depend on the processing

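Of 153 calls of a listed gene, 96 kept their direction and their side of the threshold under every alternative run and 105 under those other than leaving out a library. RLE scaling changed no call or count of calls. Most counts under alternatives stand without the share of all genes called at the same setting. They do not show whether a shift is particular to the listed genes. The higher counts in MC38 macrophages (25 without treatment, 26 after 12 Gy) moved by over 1.5 times only within the shared cluster, where 12 and 12 were called and the Panc02-SIY depth was low. Calls reversed there in Slc16a3 in untreated T cells (-0.78), in Ero1l (-0.30 untreated, -0.64 after 12 Gy) and Pfkp (-1.13 after 12 Gy) in macrophages, and the cause was not tested. In T cells the shared cluster gave 4 genes in place of 16 without treatment and 3 in place of 10 after 12 Gy, where all barcodes gave 16. Leaving out a library gave 5 to 12 there, with 6 and 5 without MC38 RT replicates 3 and 4.

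For the response to 12 Gy, the counts changed as follows, and the cause was not tested. In MC38 macrophages (4) DESeq2 called 2, the cell filter 7 and the shared cluster 8, and leaving out a library 2 to 6, with 2 without MC38 NT replicate 1 or MC38 RT replicate 1. In Panc02-SIY macrophages (1) DESeq2 and all barcodes called 3, the replicate block, the cell filter and the fit without the shared cluster 2, the shared cluster 0, and leaving out a library 0 to 2. In MC38 T cells (0) DESeq2 and the replicate block called 1, no filter on low counts 3, and leaving out a library 0 to 1. In Panc02-SIY T cells (2) the replicate block called 5, doublet removal 1, the shared cluster 0, and leaving out any library 0 to 1. In NK cells (1) DESeq2, no filter and doublet removal called 2, the replicate block 3, and leaving out a library 0 to 2. In neutrophils (0) DESeq2 called 2, no filter 5, the replicate block 3, and leaving out a library 0 to 1 (1 without Panc02-SIY NT replicate 2). Without the filter monocytes had 2 in place of 0 and the T cell difference of responses 1 in place of 0. Over all CD45+ barcodes in MC38 (6), keeping shared barcodes gave 1, and leaving out a library 3 to 7, with 3 without MC38 NT replicate 1. Wherever shared barcodes are kept, here named all barcodes, libraries of a tumor hold barcodes in common and cannot be taken as independent. With all barcodes cycling T cells held 5113 CPM of summed glycolysis enzymes and 516 CPM of hypoxia-response genes, over 16 libraries of both tumors. The main values, 3924 and 451 CPM, came from 8 libraries, all of Panc02-SIY. All of these sums are without TMM scaling. The sets of libraries differ, so the values do not show an effect of keeping all barcodes.

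The replicate block moved no other count by over 1.5 times. Same-numbered libraries correlated in their deviations from the group means by -0.0474 to 0.243 in MC38 and -0.208 to 0.812 in Panc02-SIY over all CD45+ barcodes, by -0.0138 to 0.0721 and 0.025 to 0.345 in macrophages and by -0.0135 to 0.0335 and 0.0257 to 0.692 in T cells. In none of these was every pair over 0.1, and not every library correlated best with its own number, so the main fits used no pairing. In Panc02-SIY, however, NT replicates 1, 3 and 4 correlated best with the RT library of the same number. This held over all CD45+ barcodes, in macrophages and in T cells, while replicate 2 matched replicate 3. Whether same-numbered Panc02-SIY libraries shared a batch was not tested. MC38 T cells, with as few as 10 barcodes in a library, limit what could be detected there.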
